A study of Mus musculus with 18 samples.

Results

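The 10 S100 genes examined here encode small calcium-binding proteins, and they were taken by symbol from a table of 52636 mouse genes. They were S100a8, S100a9, S100a7a, S100a3, S100a4, S100a6, S100a10, S100a11, S100a14 and S100a16. S100a8 and S100a9 were picked because earlier work on the same counts had seen them higher in knockout treated skin and tumors, and the other 8 were added as relatives. RNA-seq counts came from epidermal cells of mice on a C57BL/6 background. Zfp36 encodes TTP (tristetraprolin), which binds AU-rich elements in mRNAs and speeds their decay. Controls carried floxed alleles (Zfp36 fl/fl), and their littermates (Zfp36 ΔK14, named ΔEP in the study) also carried a Cre transgene under the human keratin 14 promoter, which deletes the floxed gene in basal keratinocytes and their progeny and can act in other keratin 14 epithelia. The protocol began in young adult mice, and the labels give no age, pooling or time point per sample.

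Each genotype was sampled as mock skin, as treated skin, meaning nontumoral skin next to tumors after the mutagen DMBA and the tumor-promoting phorbol ester TPA, and as tumors, meaning papillomas that arose under the same protocol. There were 3 columns in each of 6 groups. The labels name whole skin as the source and keratinocytes as the cell type, while the methods describe living cells sorted for EpCAM and against CD45, CD140a and CD31. One column of mock ΔK14 (replicate 3) was identical to another (replicate 2) and was counted once, so that mock ΔK14 had n = 2 and the series 17 libraries. Total counts per library ran from 2808550 to 9617985. All 8 keratinocyte markers were present in every library, with a summed level of 5689 to 33142 CPM (counts per 1000000 counts, with TMM-scaled library sizes). Zfp36 lay between 152 and 698 CPM in the fl/fl libraries and at 37.7 CPM or less in the ΔK14 libraries, in keeping with the labels of all 17 libraries. Replicate 1 of both mock groups stood apart, with the lowest keratinocyte marker sums of their groups (5689 and 5862 CPM) and Dcn, a fibroblast proteoglycan, at 843 and 953 CPM against 49.9 to 94.8 CPM in the other mock libraries. Tumor fl/fl replicate 1 had the lowest total count.

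S100 proteins bind calcium through paired EF-hand motifs and usually act as dimers. S100A8 and S100A9 form calprotectin, which chelates zinc and manganese, restrains microbes and signals through TLR4 and RAGE once released. Both are hallmark proteins of neutrophils and of inflamed or wounded epidermis, where keratinocytes make them too. Most other S100 proteins work inside the cell on membranes and the cytoskeleton, several of them with annexins as partners. The S100 genes sit in the epidermal differentiation complex, a cluster that also holds the genes of the cornified envelope.

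All 10 genes lay on chromosome 3 in the GENCODE annotation of GRCm38 (mm10), which was used for positions. S100a8 spanned chr3:90668978-90670035 on the plus strand, and S100a9 spanned chr3:90692632-90695721 on the minus strand, with starts of their annotated spans 23.7 kb apart. S100a14, S100a16, S100a3, S100a4, S100a6 and S100a7a, all on the plus strand, lay within 142.1 kb of the start of S100a8, at lower coordinates. S100a11 and S100a10 lay 2851.5 and 2886.1 kb away at higher coordinates. Another annotated gene, Gm42674, shared the strand of S100a4 and covered 2115 bases of it, along with 799 bases of S100a3, and S100a2 covered 1262 bases of the S100a3 span. Reads of these genes cannot be told apart where they overlap, so S100a3 and S100a4 values are uncertain to that extent. Gm42674 had 121, 30 and 18 counts in the tumor fl/fl libraries, where S100a4 had 127, 10 and 19. In the tumor ΔK14 libraries Gm42674 had 74, 78 and 199 counts, beside 77, 76 and 198 for S100a4. The counts of the pair were thus nearly equal in 5 of the 6 tumor libraries.

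Because TTP binds AU-rich elements in 3′ untranslated regions, the longest annotated one of each gene was searched on the sense strand. The heptamer TATTTAT was in none of the 10 S100 genes, against 27.6% of 20929 genes. The nonamer TTATTTATT, which contains the heptamer, was also in none of them, against 7.66% of genes. The pentamer ATTTA, which both longer motifs contain, was in 1 of 10, against 65.2% of genes. The S100 regions were short, with a median of 190 bases against 961 over all genes, and S100a8 and S100a9 had only 68 and 114 bases. The absence says only that these letters are not in these stretches. The single pentamer was in S100a14, starting at base 567 of 622, and it is shown here with its flanks and the pentamer in capitals.
S100a14: agatgcttgggcATTTAtggtagttattt

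Promoters (250 bases before and 50 after the start, from RefSeq on GRCm38.p6) were listed for 8 of the 10 genes, with none for S100a10 and S100a14. These 8 genes had 12 listed promoters. The letters TATAAA, read on both strands, were in 4 of the 12, against 13.6% of 32851 promoters. The 4 belonged to S100a8, S100a9, S100a3 and S100a4. Because S100a8 and S100a9 had the most similar levels across libraries of any pair of members, their windows are shown with TATAAA in capitals. The letters began 30 bases before the S100a8 start (chr3:90669031-90669056, plus strand) and at the listed start of S100a9 (chr3:90695706-90695731, minus strand).
S100a8: agctttcctcTATAAAagcagctgac
S100a9: aggagctgccTATAAAtactgggctt
The second motif, TGANTCA, takes any base at its centre and is wider than the usual site of AP-1, which has G or C there. AP-1 is the transcription factor that phorbol esters such as TPA activate. TGANTCA was in 2 of the 12 promoters, against 7.81% of all promoters, and in neither S100a8 nor S100a9. S100a11 held it at 2 places, 136 and 38 bases before the start (chr3:93520350-93520376 and chr3:93520448-93520474, plus strand), which are shown in that order with the motif in capitals. A match is a description of the sequence and not a site of binding.
S100a11 distal: agagacctgtTGAGTCAcagggactac
S100a11 proximal: gggcacagccTGAGTCAggctgagggg
In S100a16 the match began 192 bases before a start (chr3:90540944-90540970, plus strand), shown with the motif in capitals. It has A at its centre and so is not the usual AP-1 site.
S100a16: accaccttttTGAATCAgatggtgtgt

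In mock skin, the S100 genes fell into abundant and scarce members. Per kilobase of the exons of coding transcripts, S100a11 led in mock fl/fl skin with 497 ± 274 CPM per kb (SD, n = 3), followed by S100a14 with 188 ± 32.5 and S100a10 with 167 ± 80.7 CPM per kb. S100a11 is a partner of annexin A1 known for its part in keratinocyte growth control, S100a14 is an epithelial member, and S100a10 is the light chain of the annexin A2 complex. S100a6 followed with 147 ± 35.5 and S100a16 with 83.2 ± 5.34 CPM per kb. The other 5 lay far lower. S100a4, known from fibroblasts and motile cells, reached 8.84 ± 7.54 CPM per kb, and S100a3, a hair cuticle protein, 6.42 ± 9.89 CPM per kb. S100a9 and S100a8 were at 1.72 ± 2.01 and 1.56 ± 1.81 CPM per kb, and S100a7a, the mouse relative of human psoriasin, was last with 0.134 ± 0.0483 CPM per kb. In tumor ΔK14 cells S100a8 was first with 1508 ± 298 CPM per kb, level with S100a11 (1482 ± 161) and S100a9 (1413 ± 328), while S100a7a stayed last with 2.85 ± 1.12 CPM per kb.

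**Figure D1:**
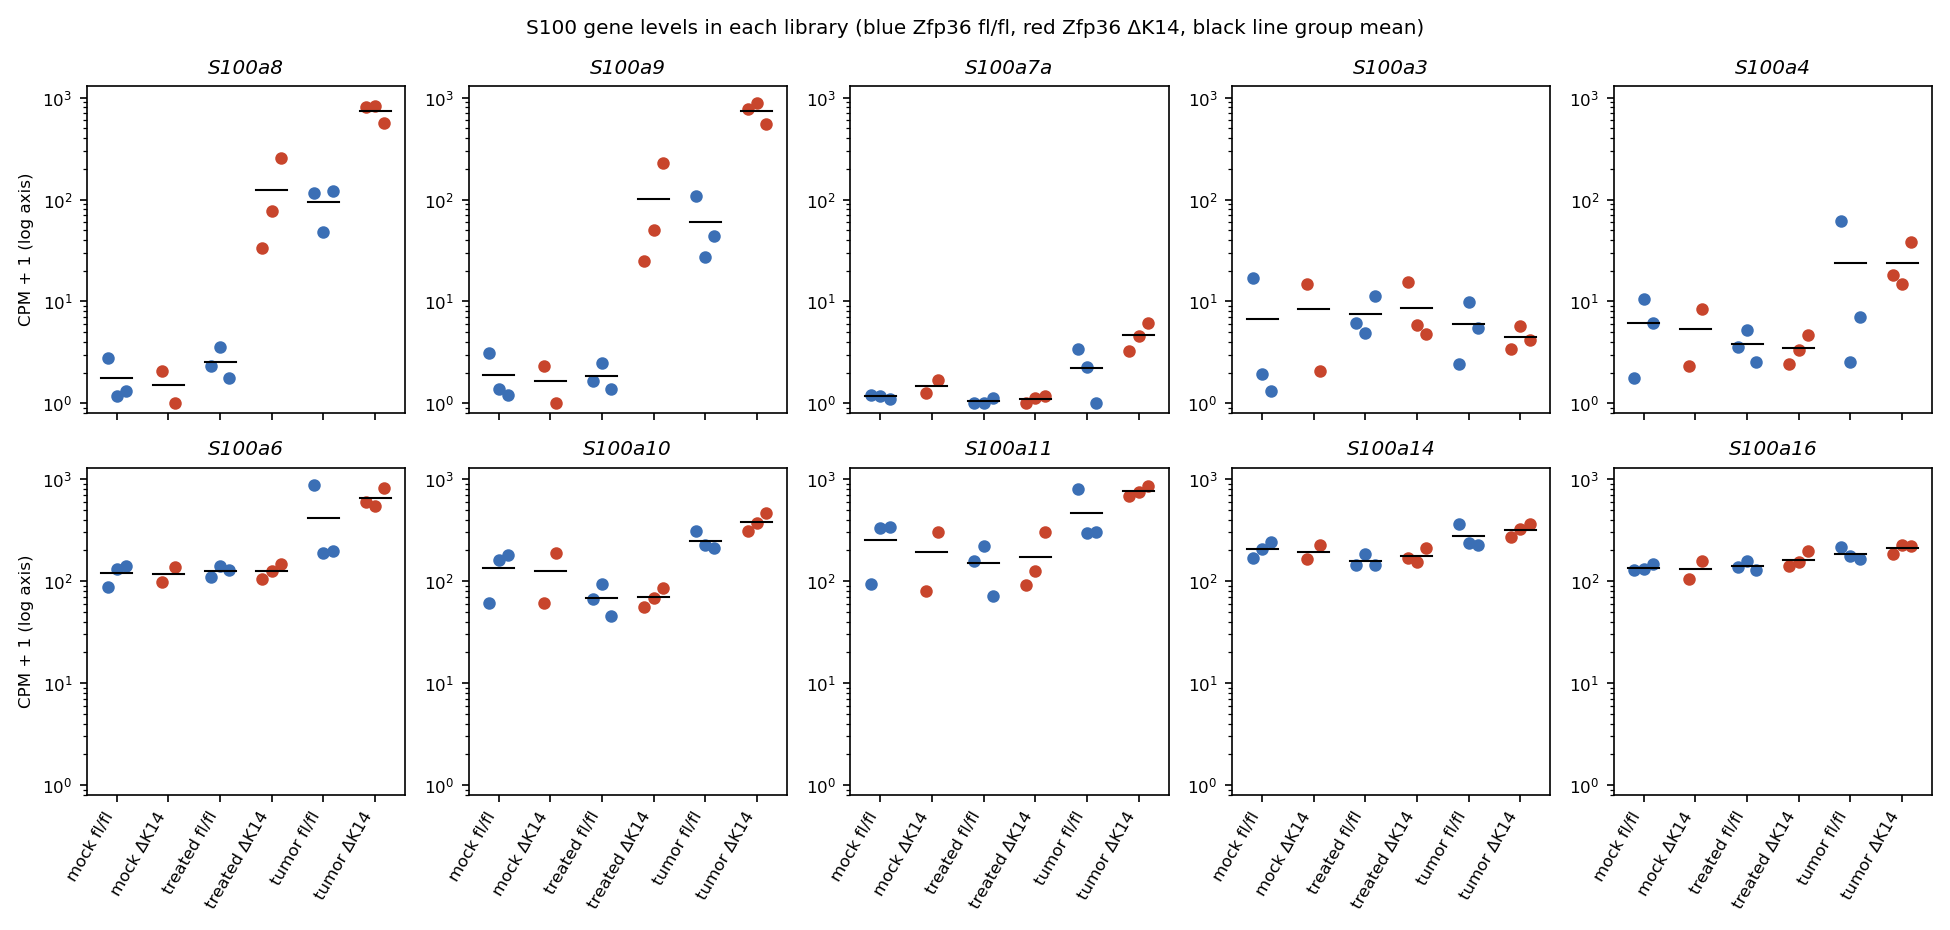
CPM plus 1 on a log axis for each of the 10 S100 genes in each of the 17 libraries, by group, with fl/fl in blue, ΔK14 in red and a black line at the group mean. S100a8 and S100a9 span the range from 0 to over 800 CPM, while S100a16 stays between 105 and 225 CPM.

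S100a8 was near the limit of detection in mock skin and in treated fl/fl skin and reached its highest levels in ΔK14 tumors. In mock fl/fl skin it had 1.77, 0.192 and 0.307 CPM, from 16, 1 and 3 counts, and in mock ΔK14 skin 1.06 and 0 CPM, from 4 and 0 counts. A count of 0 in that library allows a level of up to 1.06 CPM, taking 3 counts as the limit. In treated fl/fl skin it had 1.33, 2.58 and 0.787 CPM, so treated and mock controls overlapped. Treated ΔK14 skin had 32.8, 76.0 and 256 CPM, every library above every treated fl/fl library with replicate 3 far above replicate 1. Tumor fl/fl cells had 115, 47.5 and 120 CPM, a range inside that of treated ΔK14 skin. Tumor ΔK14 cells had 813, 820 and 566 CPM and did not overlap any other group.

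S100a9, the partner of S100a8 in calprotectin, followed the same order at the top. It had 2.10, 0.383 and 0.205 CPM in mock fl/fl skin, and 1.32 and 0 CPM in mock ΔK14 skin. Treated fl/fl skin had 0.663, 1.51 and 0.393 CPM, and treated ΔK14 skin 24.0, 49.3 and 227 CPM. As for S100a8, replicate 3 of treated ΔK14 skin was the highest and replicate 1 the lowest. Tumor fl/fl cells had 106, 26.2 and 43.2 CPM, and tumor ΔK14 cells 765, 894 and 555 CPM, above every other library. S100a9 counts per S100a8 count ran from 0.649 to 0.886 in treated ΔK14 skin and from 0.941 to 1.09 in tumor ΔK14 cells. In tumor fl/fl cells the ratio was 0.921, 0.551 and 0.36, so S100a8 exceeded S100a9 most in replicate 3.

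The difference between genotypes in treated skin and in tumors was the contrast that picked S100a8 and S100a9, and it is given without a test. In treated skin the fitted log2 change of ΔK14 over fl/fl was 6.32 (SE 0.86) for S100a8 and 6.93 (SE 1.02) for S100a9. Without treated ΔK14 replicate 3, the highest library, the values were 5.24 and 5.57. In tumors the log2 fold changes were smaller, at 2.79 (SE 0.40) for S100a8 and 3.51 (SE 0.52) for S100a9, against a higher level in the fl/fl tumors. Without tumor fl/fl replicate 1 the value for S100a9 was 4.32. The other members did not separate the genotypes. In treated skin only S100a8 and S100a9 of the 10 had groups that did not overlap, both higher in ΔK14, where 5.96% of all 16232 genes were higher and 5.62% lower without overlap. In tumors the same 2 of 10 did not overlap, where 15.3% of 14067 genes were higher and 3.61% lower without overlap. The remaining 7 members past the low-count filter in treated skin had log2 fold changes between -0.17 and 0.20. In tumors the other 8 lay between -0.75 for S100a3 and 1.53 for S100a7a, with overlapping groups in each case. For S100a4 the value was -0.09 with all libraries and 2.64 without tumor fl/fl replicate 1, for S100a6 it was 0.48 and 1.66, and for S100a11 0.54 and 1.24.

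S100a8 and S100a9 together held a share of the summed CPM of the 10 genes that ranged from 0 to 0.699% in mock skin of either genotype and from 0.224 to 0.510% in treated fl/fl skin. The share was 9.08, 16.6 and 33.9% in treated ΔK14 skin, and 7.81, 6.13 and 12.9% in tumor fl/fl cells. In tumor ΔK14 cells it reached 43.4, 43.6 and 28.9%. The summed CPM of all 10 genes was 858 ± 265 in mock fl/fl skin (SD, n = 3), 651 ± 140 in treated fl/fl skin and 935 ± 429 in treated ΔK14 skin, and it was 1769 ± 924 in tumor fl/fl and 3817 ± 159 in tumor ΔK14 cells. In a bulk library, more cells of a type and more RNA per cell cannot be told apart.

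**Figure D2:**
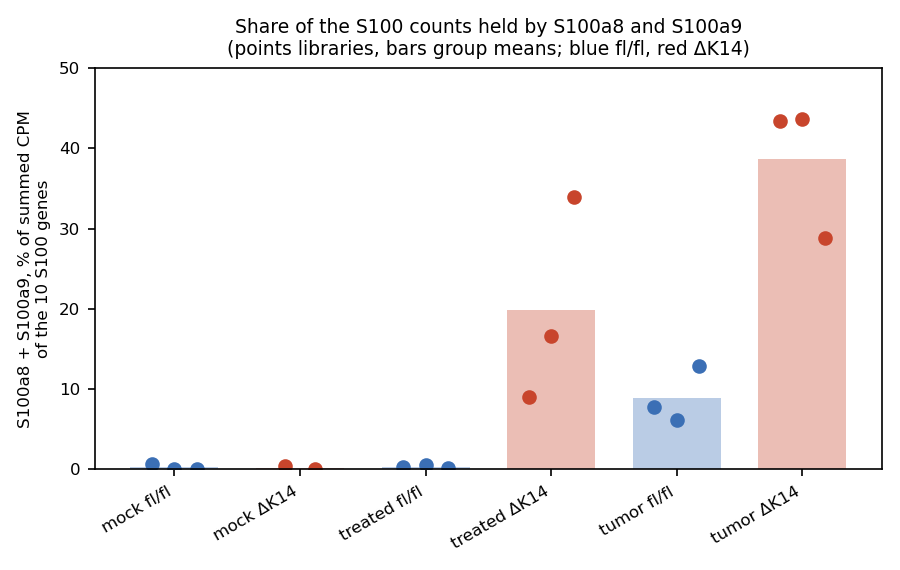
Share of the summed CPM of the 10 S100 genes held by S100a8 and S100a9, in percent, with points for libraries and bars for group means in fl/fl (blue) and ΔK14 (red). The 3 treated ΔK14 libraries lie between 9.08 and 33.9%, and the 3 tumor ΔK14 libraries between 28.9 and 43.6%.

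Neutrophils carry very large amounts of S100a8 and S100a9, so their markers were read in the same libraries. Of 10 neutrophil markers, Retnlg and Cd177 were at 0 in all 17 libraries, and Ly6g, which defines these cells in the mouse, was at 0 in 12 libraries with at most 2 counts elsewhere. Csf3r was at 0 in 13 libraries with at most 1 count, and Ngp, Ltf, Mmp8, Mpo and Elane never exceeded 5 counts. The summed level of the list was 0.215 to 1.34 CPM in mock and treated fl/fl skin and in mock ΔK14 skin. It was 1.07 to 7.30 CPM in treated ΔK14 skin, 4.86 to 6.04 CPM in tumor fl/fl and 3.34 to 8.35 CPM in tumor ΔK14 cells. Cxcr2, a chemokine receptor, gave 3 of 6, 9 of 21 and 33 of 42 counts of the list in treated ΔK14 skin, 10 of 12, 20 of 31 and 18 of 19 in tumor fl/fl, and 11 of 15, 37 of 46 and 37 of 39 in tumor ΔK14 cells. It had 0.534, 1.18 and 5.74 CPM in treated ΔK14 skin, in the same order as S100a8. Cxcr2 had 4.76, 3.14 and 5.72 CPM in tumor fl/fl and 2.45, 6.72 and 6.98 CPM in tumor ΔK14 cells. Its part in the S100a8 and S100a9 levels was not tested.

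Among 12 markers of myeloid cells and other leukocytes the summed level was 6.03 to 23.2 CPM in all groups. It was 10.5, 14.1 and 16.5 CPM in tumor fl/fl and 12.9, 14.5 and 12.5 CPM in tumor ΔK14 cells. Mock ΔK14 replicate 2 had 23.2 CPM, and the other mock libraries had 7.13 to 11.6 CPM. The 6 fibroblast markers summed to 370 to 1637 CPM in mock and treated skin and to 30.2 to 387 CPM in tumors. Endothelial markers (4 genes) summed to 8.87 to 37.8 CPM over all libraries, and the 6 melanocyte and Schwann cell markers to 44.4 to 330 CPM in skin and 8.90 to 35.4 CPM in tumors. The part of these cells in the S100 levels was not tested. The keratinocyte sum in treated ΔK14 skin was lowest in replicate 1 (6302 CPM) and highest in replicate 3 (26322 CPM), the same order as S100a8 and S100a9. Treated fl/fl skin (12565, 16808 and 7613 CPM) also had the order of both genes. In tumor fl/fl cells the sums were 33142, 11574 and 12271 CPM, in the order of S100a9 but not of S100a8. In tumor ΔK14 cells they were 28506, 30019 and 28604 CPM, in the order of neither gene. In both mock groups replicate 1 had the lowest sum and the highest S100a8 and S100a9.

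**Figure D3:**
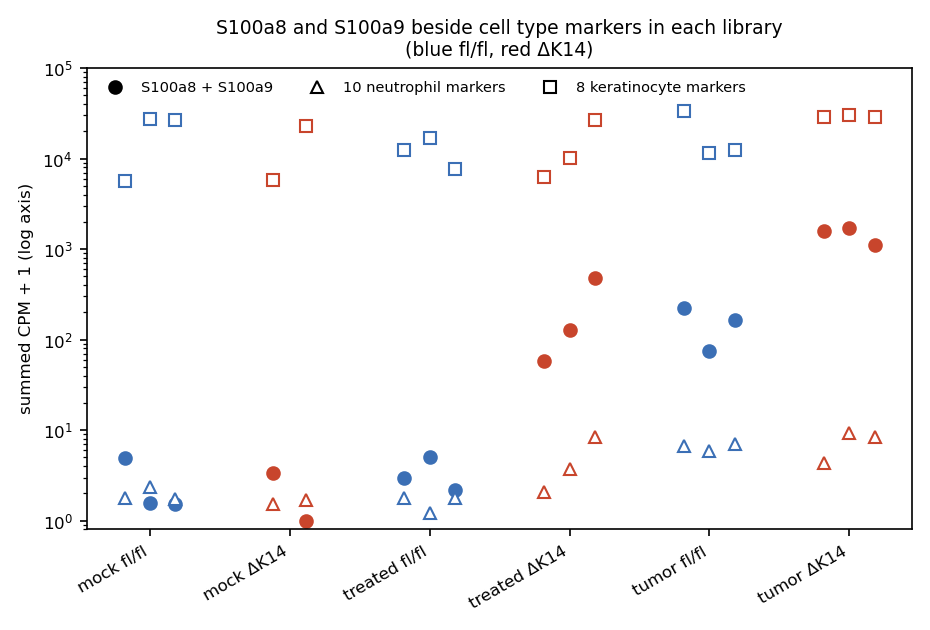
Summed CPM plus 1 on a log axis for S100a8 and S100a9 (filled circles), 10 neutrophil markers (open triangles) and 8 keratinocyte markers (open squares) in each library, with fl/fl in blue and ΔK14 in red. The neutrophil list stays at or below 8.35 CPM in every library, while S100a8 and S100a9 together exceed it in every treated ΔK14 and tumor library.

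Loss of Zfp36 alone, compared in mock skin, was not accompanied by a called change in any S100 gene that could be tested. A gene was called at a Benjamini-Hochberg adjusted p under 0.05 in edgeR's quasi-likelihood test with a fold change over 2. Here 7 of the 10 members passed the low-count filter and 0 were called, as were 0% of 15920 genes, with 253 genes and 0 members at an unadjusted p under 0.05. The 7 log2 fold changes lay between -0.33 and 0.34. Zfp36 itself was lower in ΔK14 without overlap, at -4.13 (SE 0.86), and was not called either (edgeR adjusted p = 0.99998). The absence of calls in this comparison therefore cannot show that the S100 genes were unchanged. Over the whole table, edgeR's exact test called 2 genes and DESeq2 3, and neither called a member. With a replicate block the quasi-likelihood test called 110 genes and 0 members. S100a8, S100a9 and S100a7a were below the filter, with at most 19 counts in a mock library.

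Treatment without tumors gave a similar picture in controls. S100a8 is described only, since these treated libraries were the low side of the contrast that picked it, and its fitted log2 change was 0.92 (SE 0.87). Of the 7 other members past the filter in treated against mock fl/fl skin 0 were called by edgeR's quasi-likelihood test, as were 0% of 16601 genes, with 913 genes and 0 of these members at an unadjusted p under 0.05. The exact test and DESeq2 called 104 and 118 genes and 0 of these members. S100a10 and S100a3 depended on mock fl/fl replicate 1. S100a10 had 59.6, 162 and 180 CPM in mock fl/fl and 65.9, 93.4 and 44.6 CPM in treated fl/fl skin, a log2 change of -0.93 (SE 0.45, edgeR adjusted p = 0.888). With that library left out it was called lower in treated skin, at -1.28 (edgeR adjusted p = 0.0159), where 2587 genes were called in place of 0. S100a3 had 15.9, 0.958 and 0.307 CPM in mock fl/fl skin, where only the library set apart was high, and 5.20, 3.87 and 10.4 CPM in treated fl/fl skin. Its log2 fold change was 0.15 (SE 1.23, edgeR adjusted p = 0.994) with all libraries and 3.58 without mock replicate 1. In the second fit it passed the filter only through the treated skin and is given with no test.

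In ΔK14 mice, treated against mock skin, S100a8 and S100a9 were not tested, since the treated libraries had chosen them. Of the other 8 members 7 passed the filter and 0 were called, as were 0% of 15891 genes, with 763 genes and 0 members at an unadjusted p under 0.05 and 0 of these members called by the exact test, or by DESeq2, which gave an adjusted p for 6 of them. The log2 fold changes of these 7 lay between -0.91 for S100a10 and 0.25 for S100a16. S100a7a was below the filter with at most 1 count in a treated ΔK14 library.

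Fl/fl tumors carried more S100a8 and S100a9 than either kind of fl/fl skin, at the levels given above. The choice of both genes had used the treated and tumor fl/fl libraries, and S100a9 passed the low-count filter only through the tumors, so the fitted log2 changes against treated skin, 6.0 for S100a8 and 6.19 for S100a9, are a description with no test. Of the 7 other members past the filter 1 was called, where 18% of 15362 genes were called and 7.5% were called higher. That member was S100a10, which had 310, 225 and 209 CPM in tumors against 65.9, 93.4 and 44.6 CPM in treated skin, a log2 change of 1.88 (SE 0.30, edgeR adjusted p = 0.00574). Groups were separate, with the tumors higher, in 5 of these 7 and in 20.7% of the genes tested. The median log2 change of the 7 was 1.66, against -0.02 over all genes. DESeq2 and the exact test called 4 of the 7, adding S100a4, S100a6 and S100a11, where they called 3224 and 3582 genes in place of 2764.

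Other members were higher in fl/fl tumors without reaching the call. S100a11 had 795, 296 and 300 CPM in tumors against 158, 218 and 70.7 CPM in treated skin, with a log2 change of 1.66 (SE 0.52, edgeR adjusted p = 0.0502). S100a6, which binds calcyclin-binding protein and annexins, had 865, 186 and 198 CPM against 109, 138 and 127 CPM, with a log2 change of 1.75 (SE 0.59, edgeR adjusted p = 0.0632). Tumor and treated libraries did not overlap in S100a11 or S100a6, and replicate 1 was the highest tumor library in both. S100a4 had 60.5, 1.57 and 6.04 CPM in tumors against 2.54, 4.31 and 1.57 CPM in treated skin, a log2 change of 3.00 (SE 1.20, edgeR adjusted p = 0.1) that rested on tumor replicate 1 and was 0.35 without it. For S100a6 the value without that library was 0.61. Leaving out tumor replicate 2 instead brought S100a4 (3.64, edgeR adjusted p = 0.0360) and S100a6 (2.14, edgeR adjusted p = 0.0390) to a call, with 2603 genes called. S100a14 passed the adjusted threshold at 0.81 (SE 0.24, edgeR adjusted p = 0.0449) but was under a 2-fold change. S100a16 (0.39, SE 0.18, edgeR adjusted p = 0.149) and S100a3 (-0.32, SE 0.59, edgeR adjusted p = 0.710) were not called, and S100a16 turned to -0.10 when library sizes were not scaled, a setting that moved the median of all genes by -0.47.

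Against mock fl/fl skin, S100a8 and S100a9 passed the filter only through the tumors that had helped to choose them, and their fitted log2 changes of 6.86 and 5.95 are again a description. Of the other 7 members 0 were called by edgeR's quasi-likelihood test and 1 had an unadjusted p under 0.05, where 4.11% of 15394 genes were called and 2.22% were called higher. Tumors were higher without overlap in 3 of these 7 and in 14.3% of the genes tested, and the median log2 change of the 7 was 0.90. The 3 were S100a6 (1.84), S100a10 (0.92) and S100a16 (0.47), with edgeR adjusted p of 0.121, 0.208 and 0.246. S100a6 was called by DESeq2 and the exact test (adjusted p = 0.0323 and 0.0442), in a single fit of all libraries (0.0128) and with no low-count filter (0.00234), settings that called 2201, 2058, 3205 and 2595 genes in place of 632. Without tumor fl/fl replicate 1 its log2 change was 0.70 (edgeR adjusted p = 0.159). S100a4 had a log2 change of 2.16 (SE 1.32, edgeR adjusted p = 0.338), and of -0.45 without tumor replicate 1. S100a3 went from -0.21 to 3.15 without mock replicate 1. In that fit it passed the filter only through the tumors and is given with no test.

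ΔK14 tumors were compared with ΔK14 treated skin in the 7 members other than S100a8, S100a9 and S100a7a. Of these, S100a4, S100a6, S100a10 and S100a11 were called, 4 of 7 and all higher in tumors, where 26% of 15289 genes were called and 10.5% were called higher. Tumors were higher without overlap in 5 of these 7 and in 27.5% of the genes tested. The median log2 change of the 7 was 2.09, against -0.03 over all genes. S100a10 had 306, 368 and 466 CPM in tumors against 54.5, 67.7 and 84.2 CPM in treated skin, a log2 change of 2.39 (SE 0.22, edgeR adjusted p = 0.000335). S100a6 had 594, 542 and 825 CPM against 103, 125 and 146 CPM, a log2 change of 2.31 (SE 0.22, edgeR adjusted p = 0.000375). In both genes the lowest tumor library was over 3 times the highest treated library. S100a11 had 686, 740 and 847 CPM against 91.4, 124 and 299 CPM, a log2 change of 2.09 (SE 0.38, edgeR adjusted p = 0.00413), with replicate 3 the highest of the treated libraries as for S100a8.

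S100a4 had 17.2, 13.8 and 37.4 CPM in ΔK14 tumors against 1.42, 2.36 and 3.65 CPM in treated skin, a log2 change of 3.11 (SE 0.47, edgeR adjusted p = 0.00194). Its counts in these tumors (77, 76 and 198) were nearly equal to those of the overlapping Gm42674 (74, 78 and 199), so the value is uncertain to that extent. Fibroblasts are another known source of S100a4. Their 6 markers summed to 30.2 to 387 CPM in these tumors and 445 to 948 CPM in the treated skin, and their part in the S100a4 level was not tested. S100a7a had 10, 20 and 27 counts in tumors against 0, 1 and 1 in treated skin, a ratio of 35.4 with scaled library sizes. It passed the filter only through the tumors and is given with no test. S100a14 (0.77, SE 0.18, edgeR adjusted p = 0.0110) passed the threshold under a 2-fold change. S100a16 (0.29, SE 0.18, edgeR adjusted p = 0.215) and S100a3 (-1.22, SE 0.55, edgeR adjusted p = 0.111) were not called. S100a16 turned to -0.15 without scaling of library sizes, where the median of all genes moved by -0.44, and S100a3 was called lower without treated replicate 3 (-1.52, edgeR adjusted p = 0.0393).

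Against mock ΔK14 skin, which had 2 libraries, S100a4 passed the low-count filter only through the ΔK14 tumors and is given with no test. Of the other 6 of the same 7 members, 1 was called, where 14.3% of 15027 genes were called and 7.05% were called higher. Tumors were higher without overlap in 6 of the 7, S100a4 among them, and in 29.9% of the genes tested. S100a6 had 594, 542 and 825 CPM against 97.2 and 137 CPM, a log2 change of 2.36 (SE 0.33, edgeR adjusted p = 0.0120). S100a7a, again past the filter only through the tumors and not tested, had 57 counts in all tumors against 3 in all mock libraries, a ratio of 8.23 with scaled library sizes. S100a6 missed the threshold without tumor ΔK14 replicate 1, 2 or 3 (edgeR adjusted p = 0.0514, 0.0619 and 0.0567). Then no member was called, and 406, 101 and 216 genes in place of 2144. Leaving out either mock library left 1 in the group, so only effect sizes are given for those fits. Without mock replicate 2 only replicate 1, the library set apart, remained. The log2 fold changes were then -2.01 for S100a3, 4.04 for S100a4, 2.63 for S100a10 and 3.22 for S100a11. Without mock replicate 1 they were 1.63 for S100a3 and 1.27 for S100a11. With both libraries kept, S100a4 (2.31, not tested), S100a11 (1.88) and S100a10 (1.5) were higher in every tumor library than in both mock libraries. S100a11 and S100a10 were not called (edgeR adjusted p = 0.0652 and 0.0875). DESeq2 and the exact test called both, beside 2805 and 3361 genes.

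S100a8 and S100a9 in ΔK14 tumors are given as levels only. Against ΔK14 treated skin the fitted log2 fold change was 2.56 for S100a8 and 2.85 for S100a9, and without treated replicate 3 these were 3.66 and 4.23. In fl/fl mice the step from treated skin to tumors was 6.0 and 6.19. Whether the change from treated skin to tumors differs between genotypes was not tested for any member, and the comparisons with mock and with treated skin share the same tumor libraries.

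The order of the 6 groups differed among members. S100a8 and S100a9 had tumor ΔK14 first without overlap with the next group, then treated ΔK14 and tumor fl/fl with overlapping ranges, and all other groups at 2.58 CPM or less. S100a6 and S100a10 had both tumor groups on top, overlapping each other and separate from the third group. S100a11, S100a14 and S100a4 also had both tumor groups first, but every neighbouring pair of groups overlapped. S100a16 had group means of 131 to 209 CPM and overlapped at every step. S100a3 had no separate neighbours either, and its means ran from 3.46 to 7.70 CPM. S100a7a reached 3.65 ± 1.43 CPM (SD, n = 3) in tumor ΔK14 and at most 1.21 ± 1.19 CPM elsewhere, with tumor fl/fl at 2.38, 1.26 and 0 CPM, where a count of 0 allows up to 0.954 CPM.

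Other genes of the same pathways were read as whole lists. Of the 7 other S100 genes in the table (S100a1, S100a2, S100a5, S100a13, S100b, S100g and S100z), 2 or 3 passed the filter in each comparison and 0 were called in any of the 7 tested comparisons. Among 7 fused-type genes, whose proteins join an S100 domain to repeats of the cornified layer, Tchh, the trichohyalin of hair root sheath, was called lower in fl/fl tumors than in treated skin, at -4.29 (SE 0.46, edgeR adjusted p = 0.00177). In ΔK14 tumors against treated skin Tchh fell by 3.40 on the log2 scale (SE 0.46, edgeR adjusted p = 0.00136). Flg, the filaggrin gene, was lower by 4.79 (SE 1.12) in the same comparison. It passed the low-count filter only through the treated skin and is given with no test. No fused-type gene was called higher in any tested comparison.

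Of the 6 receptors and adaptors, Ager, which encodes RAGE, had at most 16 counts in a library, with 0 in each tumor fl/fl library and 1 in each tumor ΔK14 library. Tlr4 had 1 to 20 counts per library and was not called in any tested comparison. Ly96, the MD-2 partner of TLR4, was called higher in tumors than in treated skin in fl/fl (1.91, SE 0.35, edgeR adjusted p = 0.00942) and in ΔK14 mice (1.40, SE 0.43, edgeR adjusted p = 0.0321). Bsg, which encodes the S100A9-binding glycoprotein basigin, was called higher in ΔK14 tumors against treated skin (1.22, SE 0.18, edgeR adjusted p = 0.00181) and against mock skin (1.24, SE 0.29, edgeR adjusted p = 0.0382). Cd36, a fatty acid receptor, was called higher in fl/fl tumors than in treated skin (5.60, SE 1.49, edgeR adjusted p = 0.0307), although the groups overlapped. Myd88 was not called in any tested comparison.

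Of the annexin partners, Anxa1 and Anxa11 were called higher in tumors than in treated skin in both genotypes. Anxa1, the partner of S100A11, had 1272, 963 and 784 CPM in fl/fl tumors against 245, 384 and 262 CPM in treated skin, a log2 change of 1.76 (SE 0.27, edgeR adjusted p = 0.00496). In ΔK14 tumors Anxa1 had 1320, 2359 and 2952 CPM against 153, 324 and 527 CPM, a log2 change of 2.65 (SE 0.45, edgeR adjusted p = 0.00304). Anxa2, the partner of S100A10, was called in ΔK14 tumors against treated skin (1.91, SE 0.49, edgeR adjusted p = 0.0169), and in fl/fl tumors its value was 1.26 (SE 0.44, edgeR adjusted p = 0.0709). The values for Anxa11 were 1.46 (SE 0.30, edgeR adjusted p = 0.0131) in fl/fl and 2.20 (SE 0.28, edgeR adjusted p = 0.00112) in ΔK14 mice. Over the 7 binding partners, 2 were called higher and 0 lower in fl/fl tumors against treated skin, where 7.5% of all genes were called higher. In ΔK14 tumors against treated skin, where 10.5% of all genes were called higher, 4 were, including the myosin heavy chain Myh9 (1.32, SE 0.19, edgeR adjusted p = 0.00169), and Anxa6 was called lower (-1.32, SE 0.37, edgeR adjusted p = 0.0236). Against mock skin 0 partners were called in fl/fl tumors (2.22% of all genes higher), and 2 in ΔK14 tumors (7.05% higher), Anxa11 (2.30, SE 0.46, edgeR adjusted p = 0.0265) and Myh9 (1.35, SE 0.31, edgeR adjusted p = 0.0363).

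Among 13 antimicrobial and IL-17 response genes, Slpi, a protease inhibitor of epithelia, was called higher in all 4 comparisons of tumors with skin. Its log2 fold change against treated skin was 5.98 (SE 0.60, edgeR adjusted p = 0.00153) in fl/fl and 4.91 (SE 0.36, edgeR adjusted p = 0.000173) in ΔK14 mice, and against mock skin 6.62 (SE 1.0, edgeR adjusted p = 0.0200) and 5.70 (SE 0.86, edgeR adjusted p = 0.0136). Lcn2, an iron-sequestering lipocalin, was called higher in fl/fl tumors against treated skin (6.40, SE 1.37, edgeR adjusted p = 0.0152). In ΔK14 mice the same comparison gave 1.31 (SE 0.52, edgeR adjusted p = 0.0772), which was not called. Against mock skin Lcn2 passed the low-count filter only through the tumors and is given with no test. Its log2 fold changes there were 9.95 (SE 1.75) in fl/fl and 6.12 (SE 0.62) in ΔK14 mice. The list did not move as a whole. Defb6, a beta-defensin, was called lower in ΔK14 tumors against treated (-5.55, SE 0.48, edgeR adjusted p = 0.000242) and mock skin (-3.62, SE 0.57, edgeR adjusted p = 0.0155), and Chil1, a chitinase-like protein, fell against treated skin (-4.28, SE 0.64, edgeR adjusted p = 0.00192). In fl/fl tumors against treated skin Chil1 was at 1.68 (SE 0.79, edgeR adjusted p = 0.151) and was not called. Saa3, an acute phase gene, was lower in fl/fl tumors than in treated skin (-4.60, SE 0.93). It passed the filter only through the treated skin and is given with no test. Defb14 had a mean of 3.10 CPM in ΔK14 tumors, against mock libraries that were all at 0 counts. It passed the filter only through the tumors and is given with no test.

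The genes most like each member were ranked by Pearson's r of log2 CPM over 17 libraries among 18252 genes. These values describe libraries that share stage and depth, and they are no test. S100a8 and S100a9 were each other's first gene (r = 0.993), followed for S100a8 by Serpinb3a, a keratinocyte serpin (0.973), and Lgi2 (0.954), and for S100a9 by Serpinb3a (0.968) and Tmprss11e, an epithelial protease (0.945). S100a6 was closest to Esd (0.989), Gsto1 (0.978) and Gsta4 (0.975), which encode an esterase and glutathione transferases. S100a10 was closest to Ehd4 (0.978), Sfn, the 14-3-3 protein of stratified epithelium (0.977), and Sowahc (0.974). S100a11 was closest to Lamp1 (0.979), Clic1 (0.976) and Coro1c (0.975), and S100a14 to Actr3 (0.971), Wdr61 (0.969) and Rab5c (0.966). S100a16 was closest to Il1f9, an IL-36 cytokine (0.953), Serpinb6c (0.953) and Entpd7 (0.95).

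S100a3 was closest to E2f3 (0.949), Marcksl1 (0.946) and Mex3a (0.944), S100a4 to Ly6c2, 2610001J05Rik and Gm7665 (0.940 each), and S100a7a to Rps6ka5 (0.937), Arf1 (0.929) and Pou2af1 (0.929). For Pou2af1 Spearman's rho was only 0.486. Between members, r was 0.95 for S100a10 with S100a11 and 0.944 for S100a10 with S100a14. S100a8 had its highest r outside S100a9 with S100a16 (0.788). S100a3 had negative r with each member other than S100a8 (0.110) and S100a9 (0.0872), the lowest being -0.65 with S100a4. Without mock replicate 1 of both genotypes and tumor fl/fl replicate 1, r for S100a8 with S100a9 was 0.993 over 14 libraries.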

How the data were processed

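RNA-seq libraries (Ovation SoLo) of 6 groups were deposited by the authors as raw counts per gene, with no normalization. The file name and methods name featureCounts, while the submitters' processing notes name Trimmomatic 0.36, STAR 2.5.3, HTSeq 0.9.1 and DESeq2 with the mm10 build. Use of strand and removal of duplicates are not given in the sources used here. PCR copies are not independent molecules, so the limit of 3 counts covers counting error only. The authors' own comparison tables of fold changes and p-values were not used. The labels do not say that samples of a group came from separate mice, so p-values measure the spread between these samples.

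The tools were edgeR 4.0.16 and limma 3.58.1 in R 4.3.3, applied to the 2 groups of a comparison at a time. Genes passed filterByExpr, were scaled by TMM and tested with the two-sided quasi-likelihood F test with Benjamini-Hochberg adjustment over all genes tested, a procedure tested on simulated data. CPM in the text use TMM scaling over 17 libraries. All 10 S100 genes are named, with the 3 genes most like each, known partners and receptors, and called genes of the lists. The S100 genes, lists, tests and rules were chosen with earlier results of these data known. Genotype contrasts in treated skin and tumors, and S100a8 and S100a9 in all ΔK14 stage comparisons, got no test. S100a8 and S100a9 in fl/fl stages and S100a7a in ΔK14 tumors were fitted as planned but are described without a test. Counts of members called are over the other 7, and the planned counts appear only where the dependence on processing is described. Flg, Saa3, Defb14 and, against mock skin, Lcn2 were also fitted but are described without a test, because only their higher group passed the filter. The same holds for S100a4 in ΔK14 tumors against mock skin, which is not counted there. It also holds for S100a3 in the fl/fl comparisons with mock replicate 1 left out. S100a7l2 had no row in the table. Alternatives were DESeq2 1.42.0, the exact test of edgeR, all libraries in a single fit, scaling by RLE, an unfiltered table, genes with a mean count of 10 or more, a replicate block, the copied column kept, each library left out, and, added after seeing the data, no scaling factor.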

Additional observations from a re-analysis of the deposited data

How the results depend on the processing

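The member counts of this paragraph follow the planned tests unless given over the other 7. The planned counts include S100a8, S100a9 and S100a7a, for which they are no support. In fl/fl tumors against treated skin, 3 members and 2764 genes were called in the main analysis. The counts were 6 and 3224 by DESeq2, 6 and 3582 by edgeR's exact test, 5 and 2782 in a single fit of all libraries, 7 and 4316 with no low-count filter, and 3 to 5 members with a library left out. Over the other 7 members, 1 was called in the main analysis and 2 in the single fit. DESeq2, the exact test and the unfiltered table each called 4 of the other 7. In fl/fl tumors against mock skin 2 members and 632 genes were called, 4 and 2595 with no filter, and 0 to 3 members with a library left out. Over the other 7 members, 0 were called in the main analysis and 2 with no filter. In ΔK14 tumors against mock skin 2 members and 2144 genes were called. The counts were 5 and 2805 by DESeq2, 5 and 3361 by the exact test, 5 and 4154 with no filter, 1 and 1789 with a mean count of at least 10, and 0 to 6 members with a library left out. Over the other 7 members, 1 was called in the main analysis and with a mean count of at least 10. DESeq2, the exact test and the unfiltered table each called 4, among them S100a4, which is described only. Leaving out either mock ΔK14 library left 1 in the group, so the upper end of that range is no support. Treated against mock fl/fl skin gave 0 to 2 with a library left out. The 2 were S100a10 and S100a3, the latter described only. Signs turned for S100a16 without scaling (-0.10 in fl/fl and -0.15 in ΔK14 tumors against treated skin), a setting that moved the median of all genes by -0.24 to -0.47 in the comparisons of tumors with skin. With a library left out, S100a3 ran from -0.40 to 3.58 (treated against mock fl/fl), -0.96 to 3.15 (fl/fl tumors against mock), -1.03 to 0.19 (fl/fl tumors against treated) and -2.01 to 1.63 (ΔK14 tumors against mock), and S100a4 from -0.45 to 2.96 (fl/fl tumors against mock). The cause of these shifts was not tested.

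Replicate numbers were shared across groups in the labels, but same-numbered libraries did not deviate together in every pair of any comparison with 3 pairs (from -0.75 to 0.58), so the numbers were taken as names. With only 2 pairs, the correlations were 0.94 and 0.87 between the mock groups, 0.80 and 0.19 for treated against mock ΔK14 skin, and 0.05 and 0.12 for ΔK14 tumors against mock. In a group of 2 libraries the deviations are mirror images, so the 2 values of such a comparison are not independent. Whether same-numbered mock libraries shared handling was not tested. The block moved the genes called from 0 to 110 between the mock groups. With the replicate block, 1 member and 938 genes were called in ΔK14 tumors against mock skin, S100a11 reached a call in fl/fl tumors against treated skin (1.64, edgeR adjusted p = 0.04999), and S100a3 in fl/fl tumors against mock skin turned to 1.48 without a call.

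Over all genes, calls ran from 0 to 110 (mock, main count 0), 0 to 2587 (treated against mock fl/fl, 0), 0 to 212 (treated against mock ΔK14, 0), 30 to 3277 (fl/fl tumors against mock, 632), 1106 to 4316 (fl/fl tumors against treated, 2764), 101 to 4573 (ΔK14 tumors against mock, 2144) and 2823 to 5509 (ΔK14 tumors against treated, 3973). Counts of 0 to 27 limit what can be said of S100a7a at this depth.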
